A study of Mus musculus with 26 samples.

Results

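The hypoxia-inducible factor (HIF) module was taken as 8 genes, found by their exact row names in the count tables of 26 libraries, and 8 of 8 were present among 19549 gene rows. The genes are the alpha subunits Hif1a and Epas1, their partner Arnt, the prolyl hydroxylases Egln1, Egln2 and Egln3, the asparagine hydroxylase Hif1an, and Vhl. A HIF is a transcription factor made of an alpha subunit and ARNT. In oxygenated cells the EGLN enzymes, which use oxygen as a substrate, hydroxylate prolines of the alpha subunit, and VHL, the recognition part of a ubiquitin ligase, then marks it for destruction. FIH, the product of Hif1an, hydroxylates an asparagine of the alpha subunit and so blocks its contact with co-activators. In macrophages HIF-1 alpha is known for glycolysis and inflammatory genes, and Egln1 and Egln3 are themselves classical HIF targets. Because the alpha subunits are controlled mainly as proteins, mRNA levels say nothing about their protein.

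The RNA came from macrophages of mammary tumours grown in female FVB mice, aged 5 to 7 weeks when PyMT tumour cells were injected into a mammary gland, so the tumours are transplants. Each of 13 excised tumours was weighed, and its macrophages, gated as CD11b+F4/80+Ly6G-, went into a buffer with cycloheximide, which holds ribosomes on mRNA. Most of the cells went through a sucrose gradient, from which polysome mRNA, carrying at least 3 ribosomes, was pooled, and roughly 10% of the cells gave total mRNA. The 5 large tumours weighed 1504 to 2245 mg (numbers 1 and 2 in batch 1, numbers 3 to 5 in batch 2) and the 8 small tumours 467 to 841.8 mg (numbers 1 to 5 in batch 1, numbers 6 to 8 in batch 2). The labels name no genotype and no treatment beyond these. They call the batch experimental and title the batch 2 tumours LR (large) and ER (small), letters they do not expand. They do not say that each tumour came from a separate mouse, so p-values measure the spread between these tumours. Oxygen in the tumours is not among the values used here.

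Total counts were 7034173 to 28257436 per polysome library and 18018519 to 55609113 per total mRNA library. All 12 macrophage markers in the table had a mean of at least 1 CPM in each group, and together took 0.527% to 4.74% of polysome counts and 1.61% to 6.31% of total mRNA counts. Ly6g, the excluded neutrophil antigen, reached at most 0.0868 CPM in polysome and 0.0826 CPM in total mRNA. Of the other neutrophil markers, Csf3r, S100a8 and Ltf reached 450, 38.6 and 31.1 CPM in polysome mRNA, and 163, 21.4 and 96.7 CPM in total mRNA. The 11 neutrophil markers together took 0.00627% to 0.0357% of polysome counts and 0.00333% to 0.0243% of total mRNA counts. Small tumour 7 stood apart: it had the lowest median correlation with the libraries of its RNA source (0.639 in polysome, 0.696 in total mRNA). It also had the lowest macrophage marker shares (0.527% and 1.61%). Its shares of fibroblast and pericyte markers (0.372% and 0.412%) and of mammary epithelial markers (0.158% and 0.498%) were the highest. The total mRNA libraries of large tumour 3 and small tumours 6 and 7 held the lowest shares of Lars2, which encodes a mitochondrial tRNA synthetase, at 0.00406%, 0.00304% and 0.00658% of counts. The other total mRNA libraries held 0.0502% to 0.903%. In polysome mRNA Lars2 alone took 4.80% to 25.9% of counts in batch 1 and 2.17% to 10.3% in batch 2. The part of this row in the folds of polysome over total mRNA was not tested. In a bulk sample, fewer cells of a type and less RNA per cell cannot be told apart.

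Levels are CPM, counts relative to the scaled size of a library. Genes were compared with each other only after division by the length of all their annotated exons, merged, in kilobases (kb). In polysome mRNA the mean level per kb was 30.0 ± 8.38 for Vhl, 25.5 ± 13.8 for Egln2 and 15.8 ± 3.70 for Hif1a (SD, n = 13 tumours). The other genes followed in the order Egln1 (5.74 ± 3.22), Hif1an (3.24 ± 1.34), Arnt (2.49 ± 1.48), Egln3 (2.16 ± 1.76) and Epas1 (1.11 ± 0.803). In total mRNA the order was Hif1a (47.2 ± 23.7), Egln2 (32.5 ± 25.9), Vhl (23.7 ± 6.79), Arnt (5.14 ± 2.53), Hif1an (3.61 ± 0.858), Egln3 (3.33 ± 3.40), Egln1 (1.69 ± 0.601) and Epas1 (0.512 ± 0.338). By this length the ranges of every pair of neighbours overlapped except Vhl and Arnt in total mRNA. There the lowest Vhl level, 12.6 per kb, lay above the highest Arnt level, 7.71 per kb. Egln1 ranked 4 of 8 in polysome mRNA and 7 of 8 in total mRNA, and Hif1a 3 of 8 and 1 of 8. The merged exons of Arnt span 8007 bases, but its annotated mRNA with the longest coding part has 2699. These orders and the gap between Vhl and Arnt therefore depend on the length chosen.

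The promoters of the genes on which the results turn are shown because HIF binds the short core ACGTG or GCGTG of a hypoxia response element, and Egln1 and Egln3 are among its known targets. Each run holds 250 bases before to 50 bases after the transcription start, 5′ to 3′ on the gene's strand, from RefSeq on GRCm38.p6. The Hif1a start used by RefSeq lies inside the longer gene span given below. Capitals mark ACGTG or GCGTG on either strand, merged where they touch, and CACGTG, which holds ACGTG on both strands and is also the E-box of other factors.
Hif1a, chr12:73907617-73907916, plus strand: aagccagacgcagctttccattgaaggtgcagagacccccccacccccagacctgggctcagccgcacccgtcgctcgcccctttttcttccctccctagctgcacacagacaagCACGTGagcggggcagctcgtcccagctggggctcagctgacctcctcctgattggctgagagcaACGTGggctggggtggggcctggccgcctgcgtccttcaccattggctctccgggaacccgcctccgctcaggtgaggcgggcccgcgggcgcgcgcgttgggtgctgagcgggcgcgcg
Arnt, chr3:95434140-95434439, plus strand: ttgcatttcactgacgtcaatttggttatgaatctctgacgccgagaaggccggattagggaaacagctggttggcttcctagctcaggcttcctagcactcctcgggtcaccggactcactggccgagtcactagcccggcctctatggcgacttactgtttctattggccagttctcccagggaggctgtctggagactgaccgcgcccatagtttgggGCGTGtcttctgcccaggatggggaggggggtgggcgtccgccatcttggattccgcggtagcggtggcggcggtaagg
Egln1, chr8:124949205-124949504, minus strand: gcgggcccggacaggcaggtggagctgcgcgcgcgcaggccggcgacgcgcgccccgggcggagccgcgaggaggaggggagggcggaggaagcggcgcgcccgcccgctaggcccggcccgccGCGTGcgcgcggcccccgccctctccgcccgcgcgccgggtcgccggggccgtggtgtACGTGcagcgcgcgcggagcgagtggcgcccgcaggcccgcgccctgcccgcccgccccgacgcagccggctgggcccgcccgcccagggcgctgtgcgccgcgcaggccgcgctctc
Egln2, chr7:27166753-27167052, minus strand: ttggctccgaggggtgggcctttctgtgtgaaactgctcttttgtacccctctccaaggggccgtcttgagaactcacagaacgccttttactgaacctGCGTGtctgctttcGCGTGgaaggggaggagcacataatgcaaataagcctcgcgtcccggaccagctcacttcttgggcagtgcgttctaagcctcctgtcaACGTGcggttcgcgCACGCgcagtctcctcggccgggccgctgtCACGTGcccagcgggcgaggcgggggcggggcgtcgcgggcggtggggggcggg
The Hif1a run held 3 matches in all, of which the CACGTG gave 2. The Arnt run held 1 match, the Egln1 run 2, and the Egln2 run 6, of which its CACGTG gave 2. A second annotated start of Egln2 (chr7:27165679-27165978) held 1 match, the Egln3 promoter 1, and those of Vhl and Hif1an 0. Of 32851 mouse promoters of the same length, 43.8% held ACGTG or GCGTG and 7.15% held CACGTG, so a match is common. These letters are a description of the sequence, since HIF binding was not measured here, and the Epas1 promoter is named only.

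The 8 mRNAs did not share a direction between polysome and total mRNA. The mRNA of the oxygen-labile subunit Hif1a was lower on polysomes in every tumour, that of its partner Arnt was also lower, and that of Egln1, the main hydroxylase of HIF-1 alpha, was higher. These 3 were called at an adjusted p below 0.05 (edgeR quasi-likelihood test, Benjamini-Hochberg over 12109 genes), 1 higher and 2 lower, and 5 were not. The background was large, since 56.6% of all tested genes were called, 22.6% higher and 34% lower, and 3 of 8 is below that share. In batch 2 alone 2 members were called, where 29.8% of genes were, and in batch 1 alone 4 members, where 49.2% were. The median fold over the 8 genes was −0.13 on the log2 scale and that over all tested genes −0.34, and folds are relative to the scaled library and not to RNA per cell.

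**Figure D1:**
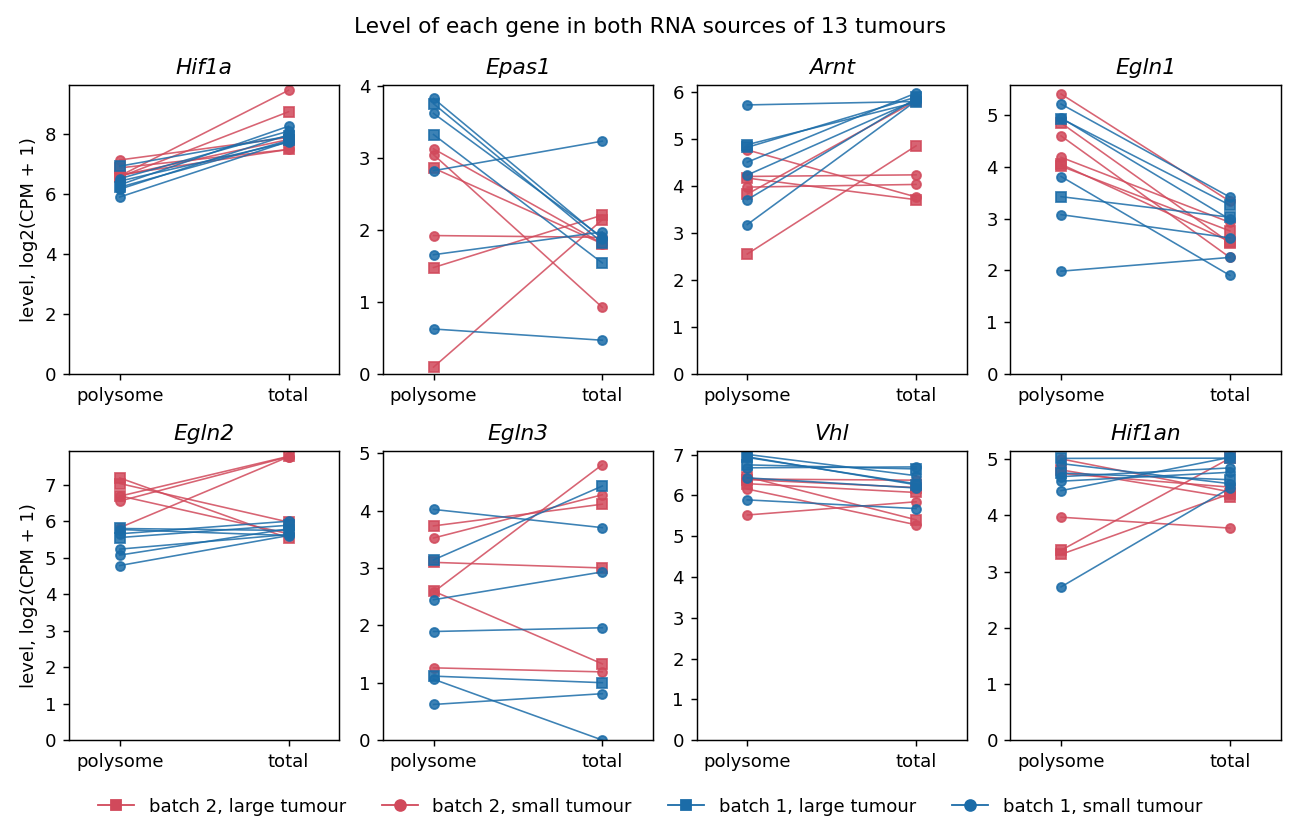
Level of each of the 8 genes in polysome and total mRNA, as log2(CPM + 1), with a line joining both libraries of a tumour, squares for large and circles for small tumours, and colours for the batches. Hif1a lines run upward to total mRNA in 13 of 13 tumours, and Egln1 lines run downward in 12 of 13.

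Hif1a lies on chromosome 12 (73901375 to 73947530, plus strand, GRCm38) and encodes the alpha subunit that gives the pathway its oxygen response. Its level was 58.3, 93.1 and 138 CPM (lowest, median and highest of 13) in polysome mRNA, and 176, 233 and 693 CPM in total mRNA. The ranges did not overlap, and the highest total mRNA values were those of small tumour 8 (693 CPM) and large tumour 3 (422 CPM), with the other 11 tumours between 176 and 302 CPM. The fitted difference was −1.50 ± 0.20 on the log2 scale (SE, edgeR adjusted p = 7.01e-07), so that polysome mRNA held 0.353 times the total mRNA level. Of all tested genes 21.4% had a lower fold, so a fold above that of Hif1a is common. Per tumour the log2 difference lay between −2.86 and −0.62 and was below 0 in 13 of 13. It was −1.41 ± 0.35 in batch 2 alone and −1.47 ± 0.21 in batch 1 alone (edgeR adjusted p = 0.00969 and 1.15e-05). Without small tumour 6, small tumour 7 and large tumour 3 it was −1.51. Part of Hif1a overlaps genes that a count without strand cannot separate, the antisense Gm15283 over 330 exonic bases (5.60% of its exons) and the same-strand Gm49321 over 148.

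Epas1 on chromosome 17 (86753700 to 86833410, plus strand) encodes HIF-2 alpha, which is prominent in endothelium and in some macrophages. It was scarce, at 0.0694, 6.25 and 13.2 CPM in polysome mRNA and 0.385, 2.67 and 8.39 CPM in total mRNA (lowest, median and highest of 13). Both ranges overlapped almost entirely, with the lowest polysome value, 1 read, in large tumour 5 and the highest total value in small tumour 1. The fold was 0.71 ± 0.62 (SE, edgeR adjusted p = 0.332), with a 95% interval of −0.49 to 1.92. The tumours divided, 9 above 0 and 4 below, from −4.93 in large tumour 5 to 2.95 in small tumour 6. In batch 2 alone the fold was 0.14 ± 1.02 and in batch 1 alone 1.56 ± 0.63 (edgeR adjusted p = 0.934 and 0.0455), and without small tumours 6 and 7 and large tumour 3 it was −0.13. The 12 endothelial markers summed to 0.000623% to 0.00326% of polysome counts and 0.000601% to 0.00391% of total mRNA counts. In the polysome libraries of large tumours 3 of them were at 0 throughout, and in each other group 0 of them were. The highest polysome levels of single markers ran from 0.482 CPM (Tek) to 29.1 CPM (Tie1). Total mRNA of small tumour 1, highest in Epas1, held 0.00125% endothelial and 0.276% fibroblast and pericyte markers. The part of these markers in the Epas1 level was not tested.

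Set against Hif1a within a tumour, the Epas1 difference was the higher in 11 of 13 tumours, by a median of 2.89 on the log2 scale (lowest −3.72 in the single-read tumour, highest 4.24). This difference between both alpha subunits was not tested, and it rests on a scarce mRNA. Most tested genes had a higher fold than Hif1a.

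Arnt on chromosome 3 (95434388 to 95497240, plus strand) encodes the constitutive partner, also called HIF-1 beta, which also pairs with the aryl hydrocarbon receptor. Its level was 4.86, 17.4 and 51.6 CPM in polysome mRNA and 12.0, 54.3 and 61.7 CPM in total mRNA (lowest, median and highest of 13). The ranges overlapped, with large tumour 5 lowest and small tumour 1 highest in polysome mRNA. In total mRNA large tumour 3 and small tumours 6, 7 and 8 had 12.0, 12.6, 17.8 and 15.3 CPM, large tumour 5 had 27.8 CPM, and the remaining 8 lay between 53.7 and 61.7 CPM. The fitted fold was −1.06 ± 0.30 (SE, edgeR adjusted p = 0.0038), lower in 11 of 13 tumours. All 5 libraries with little total Arnt were batch 2, and the call was not made there: the fold was −0.56 ± 0.45 in batch 2 alone and −1.31 ± 0.32 in batch 1 alone (edgeR adjusted p = 0.366 and 0.00214). The difference between the batches was 1.07 ± 0.58 and was not called (edgeR adjusted p = 0.218), while 17.4% of all tested genes were called in that comparison and 0 of 8 members were.

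Egln1 on chromosome 8 (124908587 to 124949324, minus strand) encodes PHD2, the main prolyl hydroxylase that sets HIF-1 alpha levels in normal oxygen. Its level was 2.96, 17.1 and 41.3 CPM in polysome mRNA and 2.74, 5.78 and 9.65 CPM in total mRNA (lowest, median and highest of 13). In 11 of 13 tumours the polysome level lay above the highest total mRNA level, the exceptions being small tumours 2 and 3 with 7.42 and 2.96 CPM. The fold was 1.55 ± 0.30 (SE, edgeR adjusted p = 8.64e-05), which is 2.94-fold, and the log2 difference was above 0 in 12 of 13 tumours, with −0.34 in small tumour 3 and 2.61 in small tumour 8 at the ends. It was 1.95 ± 0.39 in batch 2 alone and 1.24 ± 0.45 in batch 1 alone (edgeR adjusted p = 0.00283 and 0.0266). Leaving out each tumour in turn gave 1.45 to 1.68. The annotated 5′ leader of Egln1 is 87.8% G and C, and its promoter printed above is 86% G and C. The leader value is higher than in 99.3% of those of 11091 tested coding genes that have an annotated leader (median 64.2%).

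The Egln1 difference exceeded that of Hif1a within each of 13 tumours, by 1.25, 2.93 and 5.47 on the log2 scale (lowest, median and highest). It also exceeded that of its paralog Egln2 in 13 of 13 tumours, by 0.31, 1.73 and 3.40, and that of Egln3 in 11 of 13. These differences between genes are descriptions without a test. Most tested genes had a higher fold than Hif1a, while the Egln1 fold was above that of 91.3% of them. Of the 3 prolyl hydroxylases Egln1 was called and Egln2 and Egln3 were not.

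**Figure D2:**
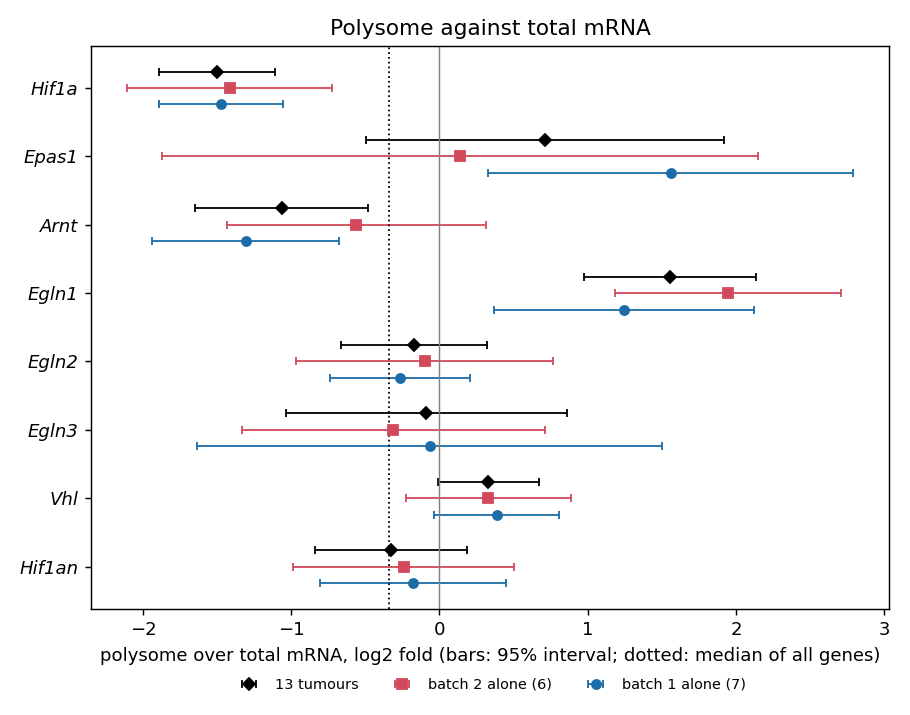
Fitted log2 fold of polysome over total mRNA for each gene over 13 tumours and in each batch alone, with approximate 95% intervals (normal quantile). The dotted line is the median of all tested genes. Hif1a lies at −1.50, Arnt at −1.06 and Egln1 at 1.55, and the interval of each other gene over 13 tumours includes 0.

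Egln2 on chromosome 7 (27158658 to 27166802, minus strand) encodes PHD1, a prolyl hydroxylase also linked to cell cycle and metabolic control. Its level was 26.6, 54.9 and 145 CPM in polysome mRNA and 45.5, 54.6 and 219 CPM in total mRNA (lowest, median and highest of 13). Total mRNA of large tumour 3, small tumour 6 and small tumour 7 had 219, 218 and 217 CPM, and the other 10 tumours lay between 45.5 and 63.1 CPM. No tumour lay between these ranges, and 11 exonic bases of Egln2 overlap the opposite-strand Cyp2t4. Polysome values were 102, 130 and 145 CPM in large tumours 3, 4 and 5 and 93.1, 55.7 and 103 CPM in small tumours 6, 7 and 8, all in batch 2, and 26.6 to 54.9 CPM in the 7 tumours of batch 1. The polysome ranges of the batches therefore did not overlap.

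The fold of polysome over total mRNA for Egln2 was −0.17 ± 0.25 (SE, edgeR adjusted p = 0.585). The log2 difference was −1.10, −1.22 and −1.96 in large tumour 3 and small tumours 6 and 7, 1.67, 1.07 and 1.05 in large tumours 5 and 4 and small tumour 8, and −0.84 to 0.17 in batch 1. The tumours with the highest total Egln2 are those whose total mRNA libraries hold the lowest Lars2 shares, and they had 40437420 to 49733409 total counts, against 18018519 to 55609113 in the other total mRNA libraries. Their Arnt levels were 3 of the 4 lowest. Fibroblast and pericyte markers were 0.0274%, 0.00767% and 0.412% of their total counts, a range that spans the other libraries, and the part of any of these measures in the Egln2 level was not tested.

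**Figure D3:**
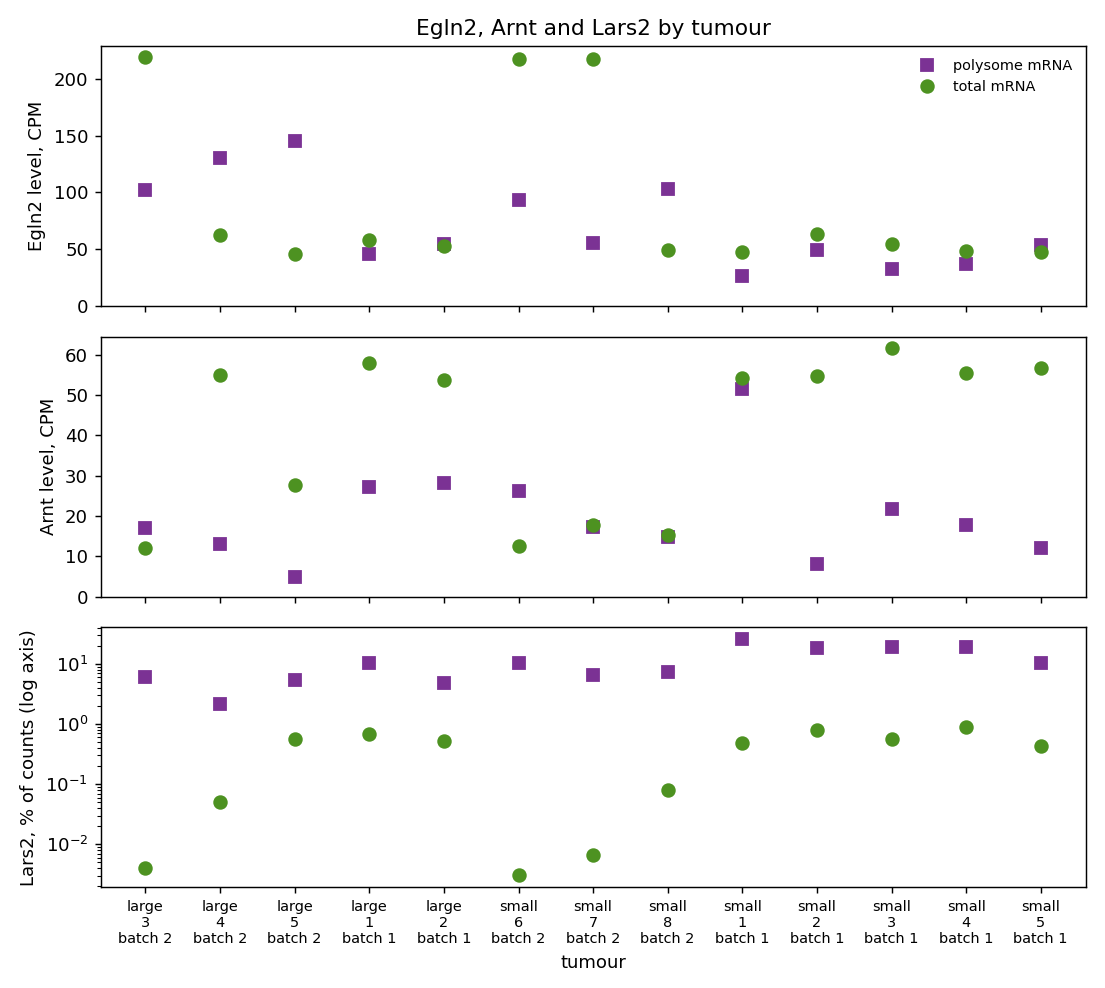
Levels of Egln2 and Arnt in CPM and the Lars2 share of counts (log axis) in polysome mRNA (squares) and total mRNA (circles) of each tumour. Total Egln2 is 217 to 219 CPM in large tumour 3 and small tumours 6 and 7 and at most 63.1 CPM elsewhere.

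A comparison of the batches was added after these levels had been seen, with tumour size in the fit. In total mRNA, batch 2 against batch 1 gave a log2 fold of 1.41 ± 0.39 for Egln2 and −1.45 ± 0.33 for Arnt (SE, edgeR adjusted p = 0.0277 and 0.0139), where 16.7% of 11671 genes were called and 2 of 8 members were. In polysome mRNA the fold was 1.16 ± 0.27 for Egln2 (edgeR adjusted p = 0.00461), where 21.4% of 10933 genes were called and 1 of 8 members was, and −0.64 ± 0.44 for Arnt (edgeR adjusted p = 0.322). Mean Egln2 was 105 ± 31.1 CPM in batch 2 (n = 6) and 42.9 ± 11.0 CPM in batch 1 (SD, n = 7) in polysome mRNA, and 135 ± 90.9 against 53.3 ± 5.82 CPM in total mRNA. Without large tumour 3 and small tumours 6 and 7 the total mRNA fold of Egln2 was −0.07 and that of Arnt −1.04 (edgeR adjusted p = 0.880 and 0.144), and the polysome fold of Egln2 was 1.39 (edgeR adjusted p = 0.0148). Since those tumours were set apart partly by Egln2, its values without them are a description. The total mRNA call of Egln2 was also lost with limma voom (1.09, adjusted p = 0.0786) and when any 1 of small tumours 2 to 7 or large tumour 3 was left out (edgeR adjusted p up to 0.0855, folds of 1.11 to 1.44).

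Egln3 on chromosome 12 (54178981 to 54203860, minus strand) encodes PHD3, the prolyl hydroxylase most strongly induced by hypoxia. Its level was 0.538, 4.98 and 15.2 CPM in polysome mRNA and 0, 6.63 and 26.9 CPM in total mRNA (lowest, median and highest of 13). The ranges overlapped, and total mRNA of small tumour 1 had 0 reads, which allows up to 0.117 CPM at that depth (3 counts, counting error only). The fold was −0.09 ± 0.48 (SE, edgeR adjusted p = 0.887), with a 95% interval of −1.04 to 0.86, above 0 in 6 of 13 tumours. Total Egln3 was 16.3, 26.9 and 18.4 CPM in large tumour 3 and small tumours 6 and 7, and 0 to 20.6 CPM in the other 10, so the highest value was that of small tumour 6 and the other two lay within the range of the rest.

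Hif1an on chromosome 19 (44562850 to 44576274, plus strand), the gene of the asparagine hydroxylase FIH, had 5.62, 24.8 and 31.3 CPM in polysome mRNA and 12.7, 22.7 and 31.7 CPM in total mRNA (lowest, median and highest of 13). The ranges overlapped widely. The fold was −0.33 ± 0.26 (SE, edgeR adjusted p = 0.294), and the tumours divided 6 above 0 and 7 below. Large tumours 3 and 5 and small tumour 5 were the low polysome libraries, with 9.40, 8.89 and 5.62 CPM, and their log2 differences of −1.73, −1.16 and −1.92 were the lowest. The Hif1an difference was above that of Hif1a in 13 of 13 tumours, by 0.041 to 3.07, and most tested genes had a higher fold than Hif1a.

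Vhl on chromosome 6 (113623959 to 113631633, plus strand), whose product binds the hydroxylated alpha subunit, had 44.9, 85.4 and 128 CPM in polysome mRNA and 37.9, 72.2 and 103 CPM in total mRNA (lowest, median and highest of 13). The ranges overlapped. Its log2 difference had the smallest SD of the 8 genes, 0.40 over 13 tumours, and was above 0 in 11 of 13 tumours, from −0.33 in small tumour 7 to 1.07 in large tumour 5. The fold was 0.33 ± 0.17 (SE, edgeR adjusted p = 0.109), with a 95% interval of −0.01 to 0.67. Vhl stayed uncalled in 20 of 23 alternatives. It passed the threshold with DESeq2 (0.40, adjusted p = 0.0232) and without small tumour 7 (0.44, edgeR adjusted p = 0.0389). It also passed without small tumours 6 and 7 and large tumour 3 (0.58, edgeR adjusted p = 0.0118). Those 3 tumours were set apart partly by Egln2, whose difference followed that of Vhl (Pearson r = 0.787 after centring within batch). The Vhl value without them is therefore a description. The Vhl difference exceeded that of Hif1a in 13 of 13 tumours, by 0.52, 2.21 and 3.76 (lowest, median and highest). Since most tested genes had a higher fold than Hif1a, this is not particular to Vhl.

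Tumour size had no called effect on any of the 8 genes. Large against small tumours gave 0 of 8 members and 0% of genes called in polysome mRNA (10933 genes), in total mRNA (11671) and in the polysome over total difference (12109). At an unadjusted p below 0.05 edgeR gave 0 members in each, against 12.5%, 4.61% and 11.4% of genes, and DESeq2 called 0 members in each, with 152, 0 and 129 genes.

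**Figure D4:**
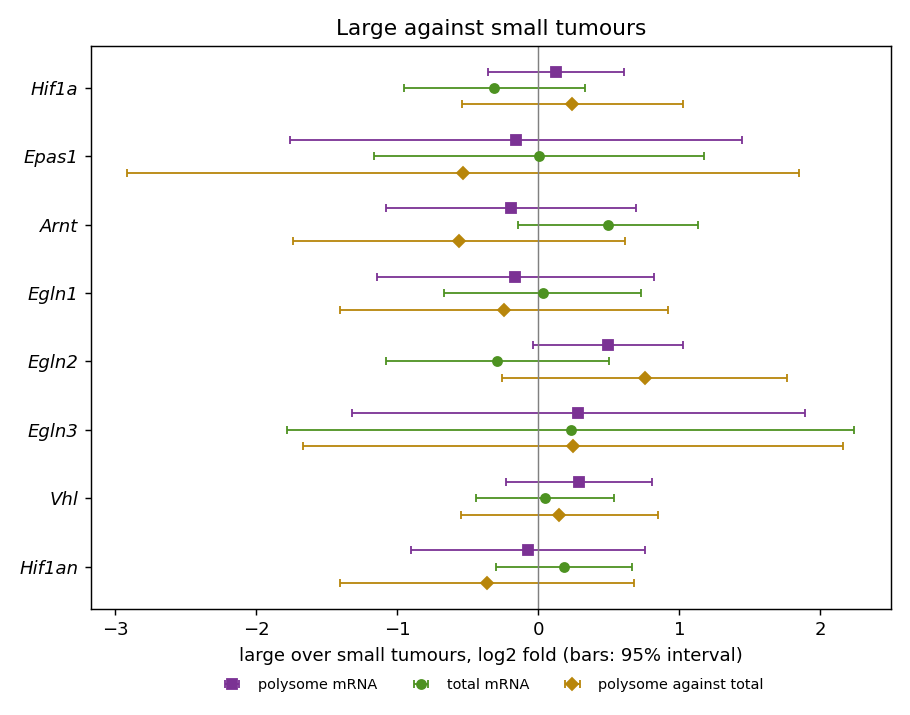
Log2 fold of large over small tumours for each gene in polysome mRNA, total mRNA and the polysome over total difference, with approximate 95% intervals (normal quantile). Each interval includes 0; those of Epas1 and Egln3 are the widest.

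Hif1a had a mean of 99.4 ± 18.6 CPM in large tumours and 88.9 ± 23.9 CPM in small tumours in polysome mRNA, and 256 ± 96.0 against 293 ± 166 CPM in total mRNA (SD, n = 5 and 8). The size folds were 0.13 ± 0.25 and −0.31 ± 0.33 (SE, edgeR adjusted p = 0.880 and 0.903), with 95% intervals of −0.36 to 0.61 and −0.95 to 0.33. The median total mRNA level was 222 CPM in large and 240 CPM in small tumours, and without small tumour 8 the total mRNA fold was 0.11. Its polysome over total difference had a size fold of 0.24 ± 0.40 (edgeR adjusted p = 0.851).

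Egln2 had the largest size fold of the prolyl hydroxylases in polysome mRNA, 0.49 ± 0.27 (SE, edgeR adjusted p = 0.462, 95% interval −0.04 to 1.02). The polysome values of the 5 large tumours were 46.0, 54.9, 102, 130 and 145 CPM, and those of the 8 small tumours 26.6, 51.6 and 103 CPM (lowest, median and highest). Within batch 2 the large tumours had 102, 130 and 145 CPM and the small ones 93.1, 55.7 and 103 CPM, which overlap by 1 tumour. The within-batch size folds were 0.56 ± 0.32 in batch 2 and 0.28 ± 0.44 in batch 1 (edgeR adjusted p = 0.433 and 0.983). In total mRNA the size fold of Egln2 was −0.29 ± 0.40, and in the polysome over total difference 0.75 ± 0.51 (edgeR adjusted p = 0.921 and 0.593).

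Arnt had the largest size fold in total mRNA, 0.49 ± 0.33 (SE, edgeR adjusted p = 0.865, 95% interval −0.15 to 1.13). Its total mRNA values were 58.0, 53.7, 12.0, 54.9 and 27.8 CPM in large tumours 1 to 5, and 12.6, 54.6 and 61.7 CPM in the 8 small tumours (lowest, median and highest). The fold was 1.05 ± 0.61 in batch 2 alone and −0.06 ± 0.17 in batch 1 alone, and the size by batch term was 1.05 ± 0.59 (edgeR adjusted p = 0.829). In polysome mRNA the size fold of Arnt was −0.19 ± 0.45 and in the polysome over total difference −0.56 ± 0.60 (edgeR adjusted p = 0.909 and 0.757). The other size folds lay between −0.16 and 0.29 in polysome mRNA, between 0.00 and 0.23 in total mRNA and between −0.53 and 0.25 in the difference, for Epas1, Egln1, Egln3, Vhl and Hif1an.

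Over all 13 tumours 11 of 16 glycolytic targets were lower on polysomes, beside 34% of all tested genes. In batch 2 alone 6 of 16 were lower, beside 1916 of 12081 genes. Of 15 tested HIF partners and regulators, 4 were higher and 4 lower on polysomes, beside 22.6% and 34% of all tested genes, so these counts are near the background (median log2 fold 0.30, against −0.34 over all tested genes). In batch 2 alone 3 were higher and 2 lower, beside 1690 higher and 1916 lower of 12081 genes. Cul2 and Tceb1, scaffold and elongin C of the VHL ubiquitin ligase, had −3.06 ± 0.32 and −1.95 ± 0.21 (SE, edgeR adjusted p = 2.32e-08 and 4.08e-08), each lower in 13 of 13 tumours. Cul2 averaged 7.15 ± 4.65 CPM in polysome and 40.3 ± 12.5 CPM in total mRNA (SD, n = 13). The co-activator Crebbp and Cited2, which competes with HIF for it, had 1.13 ± 0.21 and 1.82 ± 0.37 (edgeR adjusted p = 6.74e-05 and 0.00017), each higher in 12 of 13 tumours.

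Of 16 glycolytic HIF targets, 1 was higher on polysomes, 11 were lower and 4 were not called, beside 22.6% higher and 34% lower of all tested genes (median −0.65). In batch 2 alone 1 was higher and 6 were lower, beside 1690 higher and 1916 lower of 12081 genes. Hk2, the inducible hexokinase, was the 1 that was higher, at 1.60 ± 0.20 (SE, edgeR adjusted p = 4.17e-07), with 284 ± 217 CPM in polysome and 71.8 ± 41.7 CPM in total mRNA (SD, n = 13) and 13 of 13 tumours above 0. Its paralog Hk1 was lower at −1.71 ± 0.24, as were the phosphofructokinase Pfkl at −1.67 ± 0.22 and the mutase Pgam1 at −1.01 ± 0.17 (edgeR adjusted p = 1.31e-06, 6.96e-07 and 2.27e-05).

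Of 25 tested other HIF targets, 3 were higher and 8 lower (median −0.19), and the share of lower calls is near the 34% of all tested genes. The iron carrier Trf had −1.91 ± 0.20, the histone demethylase Kdm3a −1.61 ± 0.30, the collagen prolyl hydroxylase P4ha2 −2.22 ± 0.42 and the mitophagy receptor Bnip3l −0.83 ± 0.17 (SE, edgeR adjusted p = 1.66e-08, 5.91e-05, 7.73e-05 and 0.000176). P4ha2 was lower in 13 of 13 tumours and Kdm3a in 11 of 13. With no tumour block the counts were 1 higher and 5 lower, beside 2656 higher and 3610 lower of 12109 genes. With DESeq2 5 were higher, beside 3214 of 12109 genes. In batch 2 alone 3 were lower, beside 1916 of 12081 genes, and in batch 1 alone 5, beside 3514 of 12603.

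Of 14 other dioxygenases that need oxygen, 6 were higher and 1 lower on polysomes (median 0.29), against 22.6% of all genes higher and 34% lower. In batch 2 alone 3 were higher and 0 lower, beside 1690 higher and 1916 lower of 12081 genes. With no tumour block or without large tumour 1, large tumour 2 or small tumour 6, 2 were lower. Those fits called 3610 to 4038 genes lower, of 12053 to 12307. The histone demethylases Kdm4a and Kdm6b had 1.52 ± 0.21 and 1.37 ± 0.21, the DNA demethylase Tet3 1.50 ± 0.24 and the lysyl hydroxylase Jmjd4 1.85 ± 0.27 (SE, edgeR adjusted p = 1.35e-06, 5.64e-06, 7.91e-06 and 2.36e-06). Kdm6b averaged 79.6 ± 31.1 CPM in polysome and 29.4 ± 16.8 CPM in total mRNA (SD, n = 13), higher in 13 of 13 tumours. In large against small tumours 0 genes of the 4 lists were called in polysome mRNA, in total mRNA or in the polysome over total difference. With 0 called, the 2 genes of lowest p in each list are given as values only. In polysome mRNA the size folds were 0.92 for Rbx1 and −1.25 for Cul2, 1.06 for Aldoa and 0.96 for Pgam1, 1.11 for Hmox1 and 1.62 for Car9, and −0.88 for Kdm4a and −0.67 for Kdm5b (edgeR adjusted p of 0.270 or more).

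In total mRNA the size folds of lowest p were −0.97 for Siah1a and −1.02 for P4htm, 0.73 for Pfkfb3 and 0.98 for Slc2a1, 1.59 for Cxcr4 and 0.65 for Kdm3a, and 0.87 for Kdm6a and 0.61 for Kdm4c (edgeR adjusted p of 0.865 or more). In the polysome over total difference they were −2.08 for Cul2 and 1.20 for Rbx1, 0.95 for Aldoa and 0.99 for Pgam1, −1.20 for Ndrg1 and −0.98 for Ero1l, and −1.47 for Kdm4c and −0.90 for Kdm4a (edgeR adjusted p of 0.301 or more). In that difference the folds of 14 of 14 dioxygenases lay below 0, with a median of −0.64 against −0.06 over all tested genes, and none of these folds was called. The share of all tested genes below 0 was not counted. In polysome mRNA 13 of 14 dioxygenase folds lay below 0 (median −0.33), as did 12 of 14 of their size by batch terms (median −0.47). In polysome mRNA 14 of 16 glycolytic folds lay above 0, with a median of 0.39 against −0.01 over all tested genes, and none was called. Their size by batch terms lay below 0 in 14 of 16, with a median of −0.79 against −0.04 over all tested genes, and none was called. Most of these glycolytic size folds were thus lower in batch 2 than in batch 1. In total mRNA the folds above 0 were 11 of 14 for dioxygenases and 13 of 16 for glycolytic targets. They were 19 of 24 for other HIF targets and 6 of 14 for partners and regulators, and none was called. Genes of a list are measured in the same tumours, so their signs are not independent.

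**Figure D5:**
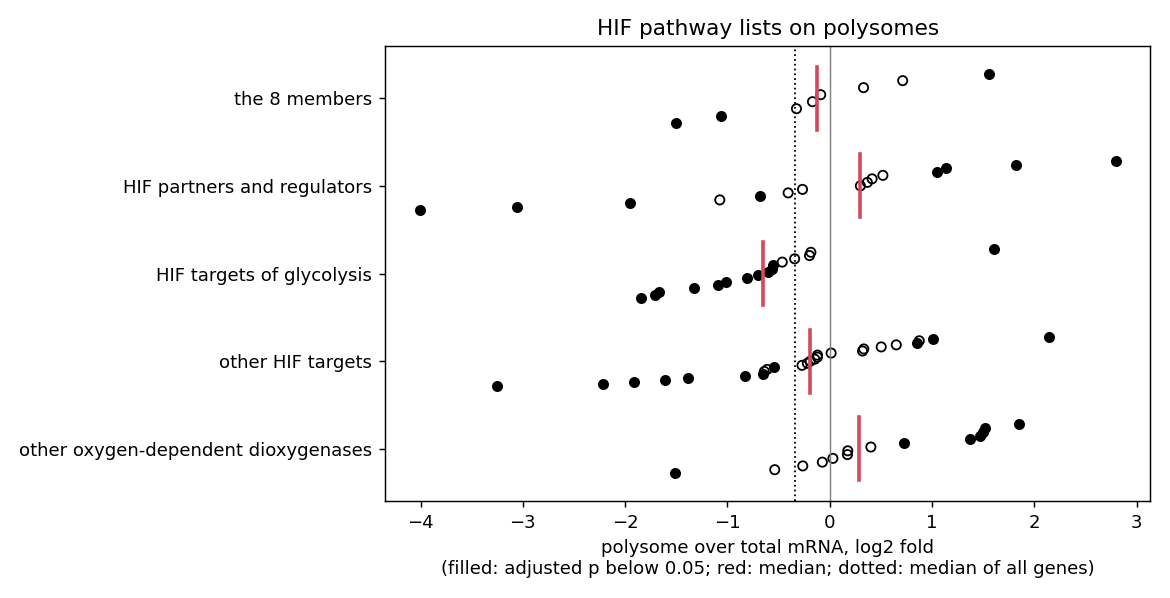
Log2 fold of polysome over total mRNA for the 8 genes and for each gene of 4 related lists, filled where the adjusted p is below 0.05, with the list median in red and the median of all tested genes dotted. The medians are −0.13, 0.30, −0.65, −0.19 and 0.29 from top to bottom.

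The genes whose polysome minus total difference was most like that of each member were found by Pearson r over 13 tumours after centring within batch, among the 8003 genes that averaged 10 CPM or more. This is a description without a p-value, and the tumours share libraries, scaling and depth. Centring within batch leaves a division inside batch 2, between large tumour 3 with small tumours 6 and 7 and the others. The mean difference was −1.43 against 1.27 for Egln2 and 0.50 against −1.54 for Arnt, so their r values include that division. For Hif1a they were Ubn1 (0.850) and Mcl1 (0.839), for Arnt the joined row of Ap5m1 and Exoc5 (0.966) and Dbt (0.911), and for Egln1 Rabgef1 (0.846) and Me2 (0.800). For Egln2 they were Trappc6a (0.966) and Dhrs3 (0.964), for Vhl Slc3a2 (0.879) and Tsku (0.867), and for Hif1an Phf8 (0.887) and Cdk11b (0.864). Epas1 and Egln3 had means of 4.53 and 7.31 CPM and were left out.

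The annotated mRNAs of the 8 genes (GENCODE M21, the transcript with the longest coding part) share a leader rich in G and C in 7 of 8. These lie above the median of 64.2% over those of 11091 tested coding genes that have an annotated leader. The leader content was 87.8% in Egln1, 74.9% in Hif1a, 72.2% in Egln2, 72.0% in Vhl, 71.1% in Arnt, 69.2% in Egln3, 67.9% in Hif1an and 57.8% in Epas1. An upstream ATG stood 4 times in the leader of Egln2, 1 time each in those of Epas1 and Egln1, and 0 times in the other 5. The Hif1an leader of 28 bases is the shortest of the 8, and its 3′ UTR of 5119 bases is longer than in 96.7% of the 11091 genes.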

How the data were processed

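Polysome and total mRNA were read from 26 SmartSeq2 libraries of 13 tumours, a kit that does not mark strand. The deposited tables hold raw counts per gene, and beside them log2 values, which were only checked: over 10472 rows they differ from the log2 of the counts by 1 constant per library, within 1.01e-13. The submitters' processing notes name HISAT, HISAT2, limma and mm10 without role or version. For the counting tool, the annotation and the use of strand: not given in the sources used here. In 830 rows several gene names are joined, and 0 members lie in such rows. No pair of libraries was identical (0 pairs).

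Counts were tested with edgeR 4.0.16 (R 4.3.3): TMM scaling, filterByExpr, robust quasi-likelihood fits and Benjamini-Hochberg adjustment over all genes of a fit at 0.05. Polysome against total mRNA and its dependence on size and batch came from 1 model with tumour as block and RNA source by size and by batch, and size within each RNA source from a model with batch. Size classes were split at 1000 mg. Levels are TMM-scaled CPM, and differences per tumour are log2 CPM with a prior count of 1. Both libraries of a tumour come from 1 sorted population, per the labels' protocols, so they pair: the median correlation of their deviations was 0.278 within a tumour (lowest 0.0364) and −0.0152 between tumours, and the own tumour was highest in 10 of 13. Total counts per library limit the precision of Epas1 and Egln3, at 1 to 178 Epas1 reads per polysome library, and counting floors cover counting error only.

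The 8 members and the lists were chosen with earlier results of these data known. All 8 members were named between polysome and total mRNA and for size, each by value or within a stated range; for batch 2 against batch 1 only Arnt and Egln2 were, chosen after their values were seen, which departs from the rule of naming all. Of each list the 4 genes of lowest p between polysome and total mRNA, and where 0 were called the 2 of lowest p, were named. For likeness the 2 genes of highest r were named. Lars2 and the comparison of the batches were taken up after the values had been seen. Positions are from GENCODE M21 on GRCm38, the assembly of mm10, and promoters from RefSeq. The fits were tested on simulated counts. Alternatives were RLE and upper-quartile scaling, no filter and a filter of 10 CPM, DESeq2 1.42.0, limma 3.58.1 voom, no tumour block, no batch term, log2 weight, each batch alone, each tumour left out, a prior count of 5, and, added after seeing the data, small tumours 6 and 7 and large tumour 3 left out.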

Additional observations from a re-analysis of the deposited data

Results flagged for a closer look

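Of 48 groups of 5 or 8 tumours that were examined for a sample far from the others, 6 held one. The cut-off is one that chance passes in about 1 in 20 groups of normally spread values from 1 population. These groups mix both batches and share libraries, and CPM need not be normally spread. The count is therefore not evidence of more such samples than chance gives. Hif1a in total mRNA had 422.13 CPM in large tumour 3, where the next large tumour had 239.95 CPM, and 693.26 CPM in small tumour 8, where the next small tumour had 302.18 CPM. Egln2 in total mRNA had 219.19 CPM in large tumour 3, and the next large tumour 62.13 CPM. Large tumour 3 was therefore the high library for both genes among the large tumours. Arnt in polysome mRNA had 51.599 CPM in small tumour 1, and the next small tumour 26.112 CPM. Epas1 in total mRNA had 8.388 CPM in the same tumour, where the next had 2.9222 CPM. The Egln3 difference of polysome minus total mRNA was 4.693 in small tumour 1, where the next was 0.3402, and it rests on 0 Egln3 reads in the total mRNA of that tumour.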

How the results depend on the processing

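Hif1a and Egln1 kept their direction and their call between polysome and total mRNA under every alternative run. Arnt kept its direction under each and its call under each except batch 2 alone (−0.56). With large tumour 3 and small tumours 6 and 7 left out, 5 members were called between polysome and total mRNA, beside 6220 of 11992 genes. In the batch 2 against batch 1 contrast of that difference 1 member (Egln2) was called, beside 865 of 11992 genes. The tumours were chosen partly by Egln2, so its values there are no support, nor are those of Vhl, whose difference followed that of Egln2. Of the values of single members, 789 kept direction and call, 77 changed sign, and with the direction kept 10 lost a call and 5 gained one. Of those that changed sign, Egln2 also gained a call between polysome and total mRNA and lost one in batch 2 against batch 1 in total mRNA, each without those tumours. The cause of each change was not tested. The tumour block changed no member's call between polysome and total mRNA: with no replicate block Hif1a had −1.57, Arnt −1.01 and Egln1 1.71. Depth limits Epas1 and Egln3.

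Signs changed as follows. Between polysome and total mRNA, without those tumours Epas1 had −0.13, Egln2 0.51 and Egln3 0.42. For size in total mRNA, Epas1 had −0.00029 with RLE scaling, −0.094 with no batch term, −0.039 with log2 weight, −0.67 in batch 1 alone and −0.34 without those tumours. There Egln3 had −0.38 with voom and −0.91 in batch 2 alone, Arnt −0.039 with no batch term and −0.061 in batch 1 alone, and Vhl −0.038 with no batch term. Egln1 had −0.015 with log2 weight and −0.33 in batch 2 alone, and Egln2 0.042 in batch 1 alone and 0.073 without those tumours. For size in polysome mRNA, batch 1 alone gave 0.62 for Epas1, 0.23 for Arnt, 0.063 for Egln1, −0.14 for Egln3 and 0.39 for Hif1an, and batch 2 alone −0.16 for Hif1a. Without those tumours Egln1 had 0.0199 and Hif1an 0.36. For size in the polysome over total difference, Egln3 had −0.018 with no replicate block, and batch 1 alone gave 1.45 for Epas1, 0.64 for Arnt, −1.08 for Egln3 and 0.52 for Hif1an. Without those tumours Epas1 had 0.23, Egln3 −0.43, Vhl −0.021 and Hif1an 0.205. In batch 2 against batch 1, Egln2 had −0.21 in the difference with no replicate block and −0.074 in total mRNA without those tumours.

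Leaving out each tumour in turn gave these ranges where a sign changed. Between polysome and total mRNA they were −0.32 to 0.046 for Egln2 and −0.29 to 0.16 for Egln3. For size in total mRNA they were −0.48 to 0.11 for Hif1a, −0.22 to 0.33 for Epas1, −0.11 to 0.24 for Egln1, −1.29 to 0.60 for Egln3 and −0.035 to 0.23 for Vhl. For size in polysome mRNA they were −0.055 to 0.20 for Hif1a, −0.56 to 0.12 for Epas1, −0.33 to 0.044 for Arnt, −0.57 to 0.018 for Egln1, −0.046 to 0.80 for Egln3 and −0.33 to 0.040 for Hif1an. For size in the difference they were −0.039 to 0.46 for Hif1a, −1.18 to 0.22 for Epas1 and −0.21 to 0.85 for Egln3, and for batch in the difference −0.33 to 0.51 for Egln2.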
